A study of Mus musculus with 21 samples.

Results

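The genes described here are 10 markers of T cells and natural killer (NK) cells: the NK receptors Klrb1c, Ncr1 and Klrd1, the T cell receptor complex and coreceptor genes Cd3e, Cd3g and Cd8a, and the cytotoxic granule genes Nkg7, Gzma, Gzmb and Prf1. They were chosen by symbol, each symbol matched 1 Ensembl identifier, and together they are 10 of the 45706 genes in each count table. RNA was sequenced from 3 sorted fractions of mice: bone marrow (BM) LSK cells, which are stem and progenitor cells left after lineage depletion and sorted as Sca1 and cKit positive, and myeloid cells enriched by CD11b from BM and from spleen. In each fraction the MxCre and the Ptpn11D61Y/+ genotype have 2 libraries and the S3 group, MxCre;Ptpn11D61Y/+ mice at the terminal stage of disease, has 3, which makes 21 libraries in 9 groups. MxCre mice carry the Cre transgene alone, driven by the interferon-inducible Mx promoter, which acts in many cells beside blood cells. Ptpn11D61Y/+ mice carry the mutant allele behind a stop cassette and no Cre, so that the allele stays silent and the normal allele alone is active. In S3 mice Cre removed the cassette and the mutant SHP2 phosphatase was made. By the study's methods all mice, controls included, received poly I:C, an inducer of interferon that itself stimulates NK cells. The ages of the control mice were not given in the sources used here. CD11b+ cells were enriched on magnetic columns without a step against NK or T cells. The labels give S3 libraries the numbers 540 and 815 in all 3 fractions, 640 in both CD11b+ fractions and 768 in LSK cells. Each number is called an animal here, although the labels do not say what it stands for.

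NK cells and cytotoxic T cells kill infected or malignant cells by releasing granules, in which perforin opens the target membrane and granzymes enter to start cell death. NK cells carry germline-encoded receptors of the killer lectin-like and natural cytotoxicity families, whereas T cells carry a rearranged receptor that signals through the CD3 chains. Mature NK cells can carry CD11b, and so can some activated CD8 T cells, so a CD11b+ column can retain both. In bulk RNA, fewer cells of a type and less RNA per cell cannot be told apart.

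All 10 genes are protein coding, and positions are those of the GRCm38 annotation. Klrb1c, the NK1.1 antigen, lies at chr6:128778485-128789215 and Klrd1, the CD94 chain of the CD94/NKG2 receptors, at chr6:129591782-129598775. Ncr1, the activating receptor NKp46, lies at chr7:4337724-4345164. Cd3e and Cd3g, signalling chains of the T cell receptor, are neighbours at chr9:44998740-45009627 and chr9:44969572-44980431, and Cd8a, a chain of the coreceptor for class I peptides, lies at chr6:71373427-71379173. Nkg7, a granule membrane protein, lies at chr7:43437073-43438249, the granzyme genes Gzma and Gzmb at chr13:113093825-113100981 and chr14:56258838-56262260, and the perforin gene Prf1 at chr10:61297833-61304680. Klrb1c shares 413 of its 2961 exon bases with the protein-coding gene Gm44511 on the same strand, and 10.81% of 100-base windows of its transcripts also occur in Gm44511 or Klrb1a, so its counts are uncertain. No window of the other 9 genes occurs in another gene. Cd3e shares 135 bases of exon with the antisense gene Gm48719, and how the counting used strand was not given in the sources used here.

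The bases just before the start of 4 of these genes are shown because the data turn on them: Nkg7 and Gzma passed the test between fractions, and Ncr1 and Cd3g stand for the NK and the T cell genes. The sequences are from RefSeq on GRCm38.p6, at chr7:43436888-43437072 on the plus strand for Nkg7, chr13:113100982-113101231 on the minus strand for Gzma, chr7:4337465-4337714 on the plus strand for Ncr1 and chr9:44980432-44980681 on the minus strand for Cd3g. They were searched, on both strands, for short motifs known for factors of T and NK cells: TGTGGT for RUNX, CAGGAAG for ETS, GGTGTGA for T-box and AGATAA for GATA factors. Capitals mark the RUNX letters or their reverse complement in Nkg7, Gzma and Ncr1 and the GATA letters in Cd3g, and the Nkg7 window ends where the annotated gene begins.
Nkg7: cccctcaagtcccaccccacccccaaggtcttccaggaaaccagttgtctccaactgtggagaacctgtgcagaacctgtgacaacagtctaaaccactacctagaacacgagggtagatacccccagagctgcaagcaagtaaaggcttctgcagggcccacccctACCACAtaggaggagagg
Gzma: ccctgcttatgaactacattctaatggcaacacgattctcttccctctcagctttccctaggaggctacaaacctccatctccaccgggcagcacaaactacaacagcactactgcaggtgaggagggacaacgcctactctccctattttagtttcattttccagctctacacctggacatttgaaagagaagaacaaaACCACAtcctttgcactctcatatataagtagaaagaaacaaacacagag
Ncr1: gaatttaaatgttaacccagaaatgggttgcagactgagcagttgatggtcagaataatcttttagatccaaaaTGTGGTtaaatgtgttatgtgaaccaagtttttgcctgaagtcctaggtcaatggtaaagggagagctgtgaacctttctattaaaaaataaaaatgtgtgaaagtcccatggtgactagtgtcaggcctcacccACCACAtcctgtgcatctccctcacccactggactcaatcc
Cd3g: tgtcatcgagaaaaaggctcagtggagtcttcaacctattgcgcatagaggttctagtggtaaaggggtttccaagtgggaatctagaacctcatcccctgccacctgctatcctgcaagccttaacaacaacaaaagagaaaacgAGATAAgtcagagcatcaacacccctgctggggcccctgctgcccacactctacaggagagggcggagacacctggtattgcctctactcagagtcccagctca
A promoter entry was found for 9 of the 10 genes, all but Klrd1, and the 250 bases before the start were searched. The RUNX letters occurred in 6 of these 9 genes, namely Klrb1c, Ncr1, Nkg7, Gzma, Gzmb and Prf1, and in 14.05% of 32851 promoters. No RUNX match was found in the windows of Cd3e, Cd3g or Cd8a. The ETS letters occurred in Cd3e, Nkg7 and Prf1 and in 10.82% of promoters, the GATA letters in Cd3g and in 9.99%, and the T-box letters in Nkg7 and in 3.33%. The ETS and T-box matches of Nkg7 lie after the bases shown, between the annotated gene start and the RefSeq start. No searched match overlapped another in these windows, and a match of letters is a description and not a measured site.

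Total counts per library ran from 34992610 to 104509425. Levels are CPM, counts scaled to the library total after TMM (a correction for differences in composition), and a count of at most 3 was taken as the floor. The sort showed in its markers: Kit, the stem cell factor receptor, ran from 288 to 533 CPM in LSK libraries and did not exceed 73.2 in CD11b+ libraries, and Itgam, which encodes CD11b, ran from 151 to 1660 CPM in CD11b+ libraries against 31.6 to 114 in LSK libraries. Ly6a, which encodes Sca1, overlapped between the fractions, from 42.5 to 76.1 CPM in LSK and from 3.18 to 313 in spleen CD11b+ libraries.

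Several libraries stood apart. The fewest genes were detected in spleen MxCre replicate 1 (14641), BM S3 animal 815 (14761) and BM MxCre replicate 1 (14885), while LSK libraries had 22718 to 24220. In BM MxCre replicate 1, 7 of the 10 genes had a count of 0. Xist, made from the inactive X chromosome, and the Y-linked Eif2s3y were both present in BM MxCre replicate 2 (2834 and 1472 counts) and in the BM and spleen libraries of animal 540 (2780 and 691, and 712 and 2084 counts), while the LSK library of animal 540 had 1 Xist count and 3829 of Eif2s3y. RNA of 1 mouse would hold only one of these transcripts at such levels, and the part of this in the results was not tested. Spleen Ptpn11D61Y/+ replicate 1 had 4753 Xist and 0 Eif2s3y counts while its namesakes in LSK and BM cells had 17 and 1 Xist counts with 6318 and 4542 of Eif2s3y, so that the number 1 there does not mark 1 animal. In animal 815 all 3 libraries had Xist and no count of Eif2s3y.

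Among the granule genes, Nkg7 separated LSK from spleen libraries. In LSK cells it stood at 68.7 and 62.1 CPM in MxCre, at 75.5 and 80.45 in Ptpn11D61Y/+ and at 123, 116 and 92.1 in S3 libraries. In spleen CD11b+ cells it stood at 10.01 and 12.5 CPM in MxCre, at 10.1 and 37.9 in Ptpn11D61Y/+ and at 8.25, 12.7 and 12.3 in S3 libraries. Every LSK library lay above every spleen library. In BM CD11b+ cells Nkg7 stood at 61.45 to 94.1 CPM in 6 libraries and at 15.3 in BM MxCre replicate 1. Nkg7 was thus abundant in LSK libraries in which the other 9 genes did not exceed 9.45 CPM. Across the 21 libraries its log2 CPM correlated with that of the other 9 genes at values from -0.29 for Gzma and -0.24 for Klrd1 to 0.494 for Klrb1c, with 7 of the 9 above 0 (Pearson r over libraries that share animals and sorts, given as a description).

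Gzma, the granzyme most abundant in NK cells, had its 2 highest group means in the spleen of MxCre and Ptpn11D61Y/+ mice. It stood at 29.1 and 16.1 CPM in MxCre and at 20.3 and 87.4 in Ptpn11D61Y/+ spleen CD11b+ libraries. In S3 spleen libraries it stood at 1.60 CPM in animal 540, 0.648 in animal 640 and 12.2 in animal 815, all below the 4 other spleen libraries. LSK libraries had 0.154 to 1.49 CPM, the highest in animal 768. BM CD11b+ libraries ran from 0 to 16.2 CPM, with the highest value in animal 815.

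Klrd1 varied with Gzma, at r = 0.924 over the 21 libraries. Its r was 0.803 with the T cell gene Cd8a, 0.506 with Cd3e and 0.595 with Cd3g. With the other NK receptors, Klrb1c and Ncr1, it was 0.531 and 0.41, so Klrd1 did not follow the NK receptors alone. Its spleen CD11b+ levels were 13.4 and 5.93 CPM in MxCre, 13.9 and 28.95 in Ptpn11D61Y/+ and 9.22, 1.41 and 46.3 in S3 libraries. The S3 libraries thus spanned both controls, with the highest and the lowest value of the fraction. BM libraries had 0 to 8.84 CPM and LSK libraries 0.485 to 3.27.

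Ncr1, the receptor most restricted to NK cells in this list, was low in most libraries. In LSK cells it stood at 0.442 and 0.371 CPM in MxCre, at 0.416 and 0.209 in Ptpn11D61Y/+ and at 0.795, 9.45 and 2.54 in S3 animals 540, 768 and 815. All 3 S3 values lay above the 4 others. Spleen CD11b+ libraries had a count of 0 and a level of 0.610 CPM in MxCre, 2.68 and 9.87 CPM in Ptpn11D61Y/+ and 0.242, 0.507 and 1.08 CPM in S3 libraries. BM libraries ran from 0.112 to 6.10 CPM, with the highest value in animal 640. Klrb1c ran from 1.48 to 9.37 CPM in LSK, from 0 to 9.36 in BM and from 0.303 to 15.8 in spleen libraries, and the fractions overlapped.

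Cd3e and Cd3g had higher mean levels in BM CD11b+ cells than in the spleen of the same genotype. Cd3e stood in the BM at 0 counts and 8.38 CPM in MxCre, at 13.03 and 13.7 CPM in Ptpn11D61Y/+ and at 6.56, 23.15 and 4.40 CPM in S3 animals 540, 640 and 815. In spleen CD11b+ cells it stood at 0 counts and 0.218 CPM in MxCre, at 3.74 and 1.60 CPM in Ptpn11D61Y/+ and at 1.60, 1.07 and 2.35 CPM in S3 libraries. In LSK cells it did not exceed 0.549 CPM. With BM MxCre replicate 1 left aside, every BM library lay above every spleen and LSK library. Cd3g followed Cd3e (r = 0.962) at 16.5 to 29.2 CPM in the other 6 BM libraries, 0 to 10.15 in spleen and 0.259 to 0.650 in LSK libraries. Cd8a ran from 7.52 to 26.4 CPM in these 6 BM libraries, from 0.741 to 23.2 in spleen and from 0.698 to 3.05 in LSK libraries, and in Ptpn11D61Y/+ mice its mean was higher in the spleen, at 15.8 CPM, than in the BM, at 10.3. In spleen Ptpn11D61Y/+ replicate 1 Cd8a stood at 23.2 CPM and Cd8b1, the other chain of the coreceptor, at 1.25, whereas in BM S3 animal 640 they stood at 26.4 and 16.4.

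Gzmb and Prf1 were low in most libraries. Gzmb stood at 2.465 and 2.92 CPM in MxCre, at 7.74 and 16.6 in Ptpn11D61Y/+ and at 0.318, 1.14 and 0.221 in S3 spleen libraries, so that the S3 values lay below the others. In LSK cells the S3 values lay above the others, at 0.467 and 0.589 CPM in MxCre, 0.884 and 1.004 in Ptpn11D61Y/+ and 1.76, 2.95 and 2.77 in S3 libraries. BM libraries had 0 to 2.71 CPM apart from 11.7 in animal 640. Prf1 ran from 0.736 to 3.32 CPM in LSK, from 0.1865 to 12.04 in BM and from 0.919 to 17.2 in spleen libraries, with animal 640 highest in the BM and Ptpn11D61Y/+ replicate 2 highest in the spleen.

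**Figure D1:**
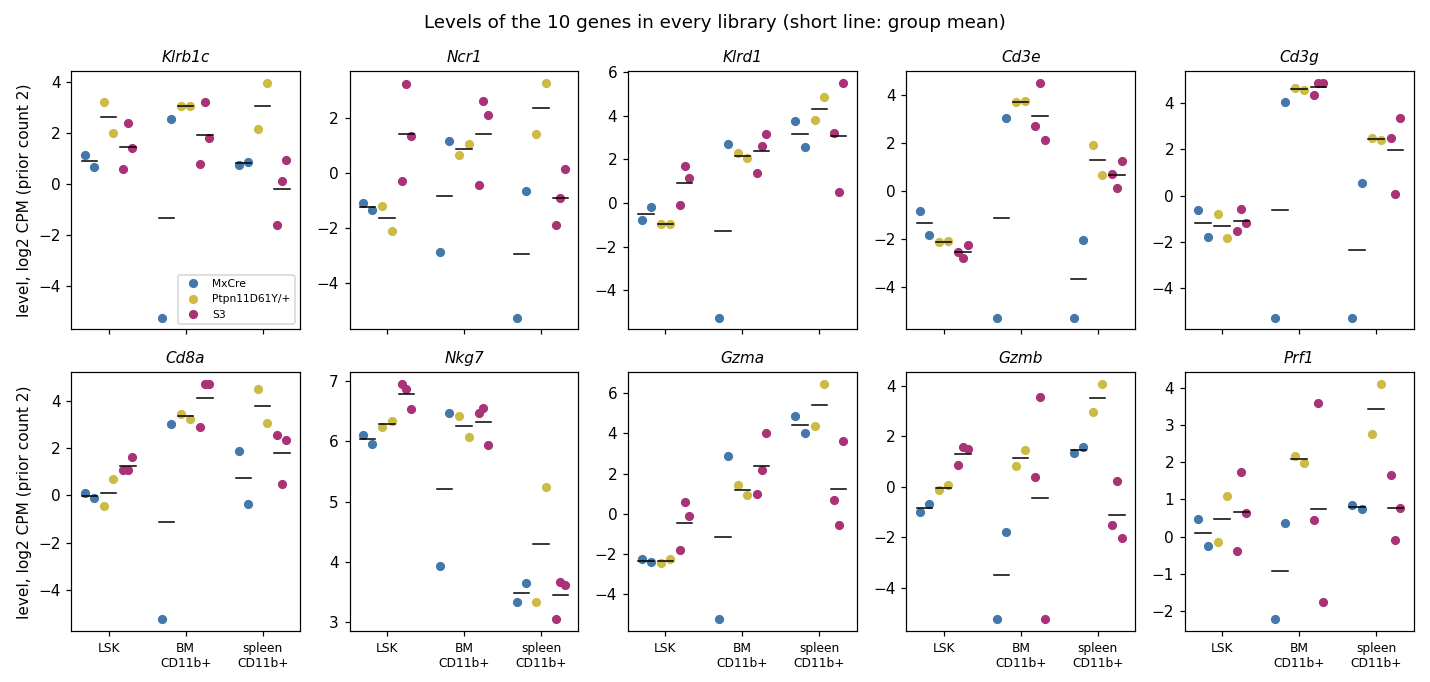
Level of each gene (log2 CPM with a prior count of 2, vertical axis) in every library of the 3 fractions (horizontal axis), with the genotype by colour and the group mean as a short line. Nkg7 is the 1 gene whose LSK values all lie above its spleen values, and BM MxCre replicate 1 is the lowest BM library for all 10 genes except Gzmb, where it ties at 0 counts with animal 815.

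When the 9 groups were ordered by mean log2 CPM, most neighbours could not be separated. For Klrb1c, Ncr1 and Nkg7 the ranges of all 8 pairs of neighbouring groups overlapped, and for Cd3g, Cd8a and Gzma 7 of 8 did. Overlap was seen in 6 of 8 pairs for Gzmb and Prf1, in 5 for Cd3e and in 4 for Klrd1.

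Levels between genes were compared per kilobase of exon. By the median over the 7 libraries of a fraction, Nkg7 led in LSK cells at 88.0 CPM per kb, and Klrb1c, the next, stood at 0.883. In BM CD11b+ cells Nkg7 stood at 93.8, Cd3g at 7.07 and Klrd1 at 3.79 CPM per kb. In spleen CD11b+ cells Gzma stood at 15.9, Nkg7 at 13.4 and Klrd1 at 10.4 CPM per kb, while Ncr1 and Cd3e stood at 0.396 and 0.391. Gzma was therefore at or above the level of Nkg7 by this median in the spleen only, and the median pools the genotypes. Gzma lay above Nkg7 in every MxCre and Ptpn11D61Y/+ spleen library and below it in every S3 spleen library. In the spleen of animals 540, 640 and 815 Gzma stood at 1.595, 0.6442 and 12.14 CPM per kb. Nkg7 stood there at 9.023, 13.91 and 13.41.

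The 3 NK receptors and the 3 T cell genes were then set against each other as sums of CPM per kb. In spleen CD11b+ cells the NK sum exceeded the T cell sum in all 7 libraries, by log2 ratios of 3.46 and 3.03 in MxCre, 0.65 and 3.01 in Ptpn11D61Y/+ and 1.0, 0.9 and 2.88 in S3 libraries. In BM CD11b+ cells the T cell sum was the larger in each of the 6 libraries with a ratio, at -0.13 in MxCre replicate 2, -0.86 and -0.81 in Ptpn11D61Y/+ and -1.69, -0.88 and -0.67 in S3 libraries. BM MxCre replicate 1 had 3 counts of the NK receptors and 0 of the T cell genes, so no ratio was taken. In LSK cells the NK sum was the larger in all 7 libraries, at 1.23 and 1.88 in MxCre, 3.22 and 1.7 in Ptpn11D61Y/+ and 1.29, 3.7 and 2.07 in S3 libraries. These ratios are a description with no test. In the spleen the sum rested mainly on Klrd1: taken by the median of the 3 receptors and of the 3 T cell genes, the mean S3 ratio changed from 1.59 to -1.35, with -3.23, 0.16 and -0.97 in animals 540, 640 and 815.

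**Figure D2:**
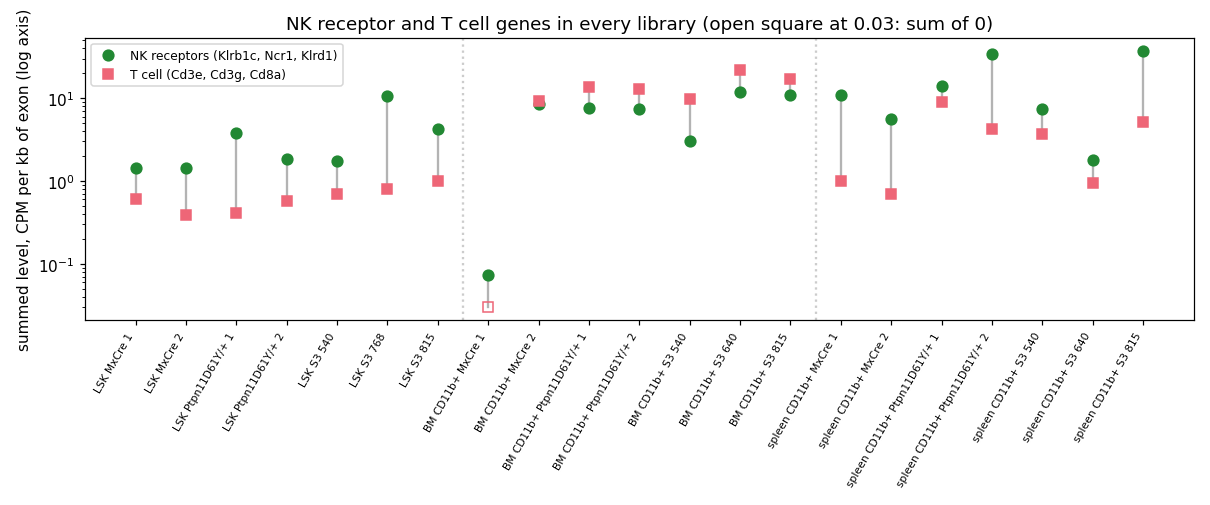
Summed level of the 3 NK receptors (circles) and of the 3 T cell genes (squares) in CPM per kb of exon on a log axis, 1 column per library. The squares lie above the circles in 6 of the 7 BM CD11b+ libraries and below them in all LSK and spleen CD11b+ libraries, and the open square stands for a sum of 0.

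The first question was whether these genes differed between S3 and MxCre mice. With edgeR's quasi-likelihood test and Benjamini-Hochberg adjustment over 19555 genes, of which all 10 were tested, none of the 10 was called in LSK cells, where 0.0307% of all genes were. Their adjusted p was 1.0 for each of the 10, and 1 gene, Ncr1, had an unadjusted p under 0.05, as 3.97% of all genes did. The fitted log2 fold change of Ncr1 was 3.39 ± 1.52 (SE, n = 3 and 2, adjusted p = 1.0 by edgeR), and it stayed between 2.03 and 3.88 when single libraries were left out. In 9 of the 10 genes the estimate was above 0, with a median of 1.04 beside 0.01 over all genes. The estimate of Cd3g, at 0.05, turned to -0.02 with scaling to library size alone, which moved the median of all genes by -0.08. The summed level of 10 neutrophil markers, at 3020 and 2550 CPM in MxCre, was 808, 1080 and 1600 in S3 LSK libraries. That of 8 basophil and mast cell markers was 1380, 954 and 838 CPM in S3 against 237 and 222 in MxCre LSK libraries, and that of 9 erythroid markers 138, 87.2 and 58.8 against 1540 and 843. The part of these other cells in the values of the 10 genes was not tested. DESeq2 and limma-voom also called 0 of the 10, and a fit on these 5 LSK libraries alone called Cd8a, Nkg7 and Gzmb among 4700 genes in all. The main fit estimates the spread of a gene over all 9 groups. For Gzmb its SE was 1.45, beside an SD of log2 CPM of 0.227 in MxCre and 0.402 in S3 LSK libraries. For Nkg7 it was 0.563, beside 0.103 and 0.222. The adjusted p of the main fit thus does not rest on the spread of LSK libraries alone.

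In BM CD11b+ cells none of the 10 was called between S3 and MxCre, as 0% of all genes were. All 10 estimates were above 0, with a median of 1.54 beside 0.18 over all genes, and 1 gene, Gzmb, had an unadjusted p under 0.05 (log2 fold change 4.94 ± 1.73, SE, adjusted p = 0.236 by edgeR), as 15.5% of all genes did. DESeq2 called Gzmb and limma-voom 0 genes. The Gzmb estimate ran from 2.22 to 11.41 when single libraries were left out. Its S3 levels were 1.29, 11.7 and 0 CPM in animals 540, 640 and 815, and the MxCre libraries had 0 and 10 counts. In BM MxCre replicate 1, 9 of the 10 genes had at most 5 counts, while Nkg7 had 410. Without that library the count stayed at 0 and the estimates of Klrb1c, Klrd1 and Nkg7 were -0.25, -0.17 and -0.11. Without MxCre replicate 2, 7 of the 10 were called against that 1 control, as were 2040 genes in all. The basophil and mast cell sum was 510, 138 and 170 CPM in S3 against 37.5 and 18.5 in MxCre BM libraries, and its part in these values was not tested.

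In spleen CD11b+ cells none of the 10 was called between S3 and MxCre, where 4.19% of all genes were. Gzma and Gzmb had estimates of -2.23 ± 1.35 and -2.25 ± 1.33 (SE, adjusted p = 0.303 and 0.292 by edgeR). Cd3e had an estimate of 3.88 ± 1.58 (SE, adjusted p = 0.146 by edgeR). It was the 1 gene with an unadjusted p under 0.05, as 25.3% of all genes had, and was called by DESeq2, while limma-voom called 0. The S3 and MxCre libraries did not overlap for 3 of the 10, namely Gzma, Gzmb and Cd3e. The share of all genes without overlap is not given here, so no weight is put on it. Both MxCre libraries had at most 10 counts of Cd3e, and replicate 1 had 0. The Cd3e estimate ran from 2.94 to 10.02 with single libraries left out and was as low as 1.6 over all alternatives. Klrd1 and Nkg7 did not separate, at 0.97 ± 1.31 and -0.03 ± 0.55, and the latter turned to 0.44 with scaling to library size alone, which moved the median of all genes by 0.45. Without the spleen library of animal 815 the estimate of Klrd1 was -0.86. With single libraries left out, the estimates ran from -4.33 to -1.71 for Gzma and from -3.31 to -1.88 for Gzmb. Markers of other cells moved with this comparison too. The erythroid sum was 14600, 29100 and 15900 CPM in S3 against 3420 and 1150 in MxCre spleen libraries, with Alas2, the first enzyme of heme synthesis in red cells, and the globin gene Hbb-bs called higher among 9 genes. The basophil and mast cell sum was 116, 59.1 and 128 against 29.9 and 5.82 CPM, with the basophil protease gene Prss34 called higher among 8 genes, and 1 of 10 neutrophil genes, Csf3r, was called lower. The part of these cells in the values of the 10 genes was not tested.

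For Cd3e, Gzma and Gzmb the S3 libraries lay on opposite sides of the MxCre libraries in LSK and in spleen cells, as for 6.83% of all genes tested, and the difference of the S3 effect was tested directly. The spleen minus LSK difference was 5.29 ± 2.0 for Cd3e, -4.59 ± 2.06 for Gzma and -4.49 ± 1.98 for Gzmb (log2, SE, adjusted p = 0.299, 0.357 and 0.352 by edgeR). None of the 10 was called, where 0.00511% of all genes were, and 3 had an unadjusted p under 0.05 beside 13.4% of all genes. DESeq2 called Cd3e and limma-voom 0 genes. For spleen minus BM none of the 10 was called, as 0% of all genes were, 1 gene (Gzmb) had an unadjusted p under 0.05 beside 10.7% of all genes, and DESeq2 called Gzmb and limma-voom 0 genes.

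The libraries labelled Ptpn11D61Y/+ were compared with MxCre as a second control, and the comparison shares its MxCre libraries with the one above. In LSK cells none of the 10 was called beside 0.0614% of all genes, and none had an unadjusted p under 0.05 beside 1.69% of all genes, with 0 called by DESeq2 and by limma-voom. In BM cells none was called beside 0% of all genes, with 1 (Gzmb) at an unadjusted p under 0.05 beside 22.6% of all genes, and 0 called by DESeq2 and by limma-voom. Here too, 6 of the 10 were called without MxCre replicate 2, among 2852 genes in all, and without replicate 1 the count stayed at 0. In spleen cells none was called beside 5.11% of all genes, and 3 had an unadjusted p under 0.05, namely Cd3e, Ncr1 and Prf1, beside 24.7% of all genes. All 10 estimates were above 0 there, with a median of 2.68 beside 0.20 over all genes, but without Ptpn11D61Y/+ replicate 2 those of Nkg7 and Gzma were -0.16 and -0.14. Ncr1 stood at 4.34 ± 1.67 and Cd3e at 4.56 ± 1.66 (log2, SE, adjusted p = 0.125 and 0.109 by edgeR). DESeq2 called both and limma-voom called Ncr1. With single libraries left out, the estimates ran from 3.12 to 11.93 for Ncr1 and from 3.61 to 10.69 for Cd3e. Spleen MxCre replicate 1 had 0 counts of both genes.

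Markers of other cells moved with this spleen comparison. The summed level of 10 neutrophil markers, led by S100a9, was 4640 and 8750 CPM in the Ptpn11D61Y/+ spleen libraries against 70700 and 135000 in MxCre, and 8 of the 10 were called lower. The summed level of 10 B cell markers, led by Ighm, was 21300 and 7960 CPM against 2550 and 546. The 20 T cell receptor and identity genes, led by Cd4, summed to 310 and 172 CPM against 63.2 and 60.4. This sum is not a measure of T cells alone: Cd4 by itself reached 208 CPM. In BM MxCre replicate 1 the sum was 184 CPM, with 0 counts of Cd3e. The part of the neutrophil, B cell and T cell sums in the values of the 10 genes was not tested. In S3 spleen libraries the neutrophil sum was 94200, 41400 and 43600 CPM, and the B cell sum 4250, 780 and 2510.

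**Figure D3:**
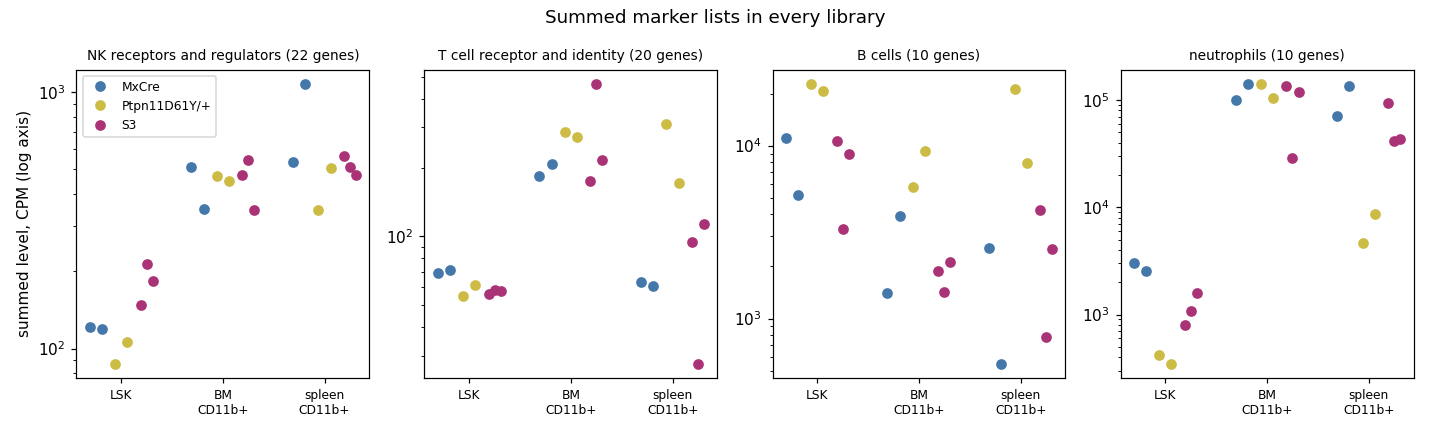
Summed CPM (log axis) of 4 marker lists in every library, by fraction and genotype. The 2 Ptpn11D61Y/+ spleen libraries lie below all other CD11b+ libraries for neutrophil genes, and the 6 highest T cell sums are in BM and Ptpn11D61Y/+ spleen libraries.

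Between the fractions, the spleen was first set against the BM. In MxCre mice none of the 10 was called beside 0.915% of all genes, and 3 had an unadjusted p under 0.05, namely Gzmb, Nkg7 and Cd3e, beside 19.8% of all genes. DESeq2 called these 3 and limma-voom 0 genes, and edgeR called Cd3e and Nkg7 without BM MxCre replicate 1, and Klrd1, Cd8a and Gzma without replicate 2. In Ptpn11D61Y/+ mice none was called beside 3.69% of all genes, with 2 (Gzma and Nkg7) at an unadjusted p under 0.05 beside 19.9% of all genes, both called by DESeq2 and neither by limma-voom. Gzma stood there at 20.3 and 87.4 CPM in the spleen against 2.63 and 1.91 in the BM, a log2 fold change of 4.57 ± 1.72 (SE, adjusted p = 0.145 by edgeR). In S3 mice none was called beside 0.0563% of all genes, with 3 (Nkg7, Cd3e and Gzmb) at an unadjusted p under 0.05 beside 9.77% of all genes. Nkg7 stood at 8.25, 12.7 and 12.3 CPM in the spleen against 88.4, 94.1 and 61.45 in the BM of animals 540, 640 and 815, with a log2 fold change of -2.88 ± 0.53 (SE, adjusted p = 0.0736 by edgeR). The groups did not overlap, as for 4 of the 10 genes, and the share of all genes without overlap is not given here. Nkg7 was called by DESeq2, and by edgeR without the BM or the spleen library of animal 640 (adjusted p between 0.0236 and 0.325 when single libraries were left out), and limma-voom called 0 genes. The main fit does not pair the libraries of an animal. Over 15 alternatives, a fit with the animal as a block among them, Nkg7 was called in 6, with estimates from -3.04 to -2.70. Across the 10 genes in S3 mice 9 of 10 estimates were below 0, with a median of -2.25 beside 0.09 over all genes, and Klrd1 was the exception. Left-out libraries changed the sign of 3 of the 10: Gzma was 0.58 without the BM library of animal 815, Prf1 1.23 without the BM library of animal 640 and Klrd1 -0.13 without the spleen library of animal 815.

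Markers of other cells also differed between spleen and BM. The erythroid sum was 3420 and 1150 CPM in MxCre spleen against 50000 and 224000 in BM libraries, and 5160 and 1150 against 162000 in both BM libraries of Ptpn11D61Y/+ mice, and 5 of 9 erythroid genes were called lower in the spleen of both genotypes. In S3 mice the sum was 14600, 29100 and 15900 CPM in the spleen against 68200, 14800 and 125000 in the BM of animals 540, 640 and 815, and none of the 9 was called. Of the 10 neutrophil genes 7 were called lower in Ptpn11D61Y/+ spleen, at sums of 4640 and 8750 against 140000 and 104000 CPM. The part of these cells in the values of the 10 genes was not tested.

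The spleen was then set against LSK cells. In MxCre mice 2 of the 10 were called, beside 41.6% of all genes. Nkg7 was lower in the spleen, by a log2 fold change of -2.54 ± 0.64 (SE, n = 2 and 2, adjusted p = 0.00663 by edgeR). Gzma was higher by 7.03 ± 1.95 (SE, adjusted p = 0.0110 by edgeR), from 22 and 17 counts in LSK to 1145 and 736 in spleen libraries. When single libraries were left out the estimates stayed between -2.73 and -2.40 for Nkg7 and between 6.52 and 7.38 for Gzma, while the adjusted p of Gzma was 0.081 and 0.0824 without LSK MxCre replicate 1 or 2, and that of Nkg7 0.0573 without spleen MxCre replicate 1. Klrd1 stood at 3.77 ± 1.56 (SE, adjusted p = 0.0626 by edgeR). Cd3g and Prf1, at 0.68 and 0.66, turned to -0.60 and -0.47 with scaling to library size alone, under which the all-gene median changed by -1.15. In S3 mice 1 of the 10 was called, beside 27.4% of all genes. Nkg7 was lower in the spleen by -3.32 ± 0.54 (log2, SE, n = 3 and 3, adjusted p = 0.000496 by edgeR), and it was called in all 14 alternatives, with estimates from -3.92 to -3.14. Without the LSK or the spleen library of animal 540 its estimate was -3.26 and -3.14. Cd3e stood at 3.46 ± 1.25, Cd3g at 3.59 ± 1.38 and Klrd1 at 3.15 ± 1.24 (SE, adjusted p = 0.0507, 0.0641 and 0.0684 by edgeR). With the animal as a block, which rests on animals 540 and 815 with both fractions, 6 of the 10 were called, namely Klrd1, Cd3e, Cd3g, Nkg7, Gzma and Gzmb, among 7714 genes in all. Animal 540 is taken as 1 animal here only by the shared number, and its libraries differed in Xist as given above. Without the spleen library of animal 640, 4 of the 10 were called, namely Klrd1, Cd3e, Cd3g and Nkg7, among 6679 genes in all. In both genotypes the share of the 10 called was below that of all genes. Many markers of other cells were called as well. All 10 neutrophil genes were called higher in MxCre and 9 in S3 spleen, and 9 and 7 of 10 monocyte and macrophage genes. Of 10 stem and progenitor genes 9 and 7 were called lower. In S3 mice 7 of 10 B cell genes were called higher and 1 lower, and 7 of 9 erythroid genes higher. What part these cells had in the values of the 10 genes was not tested.

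**Figure D4:**
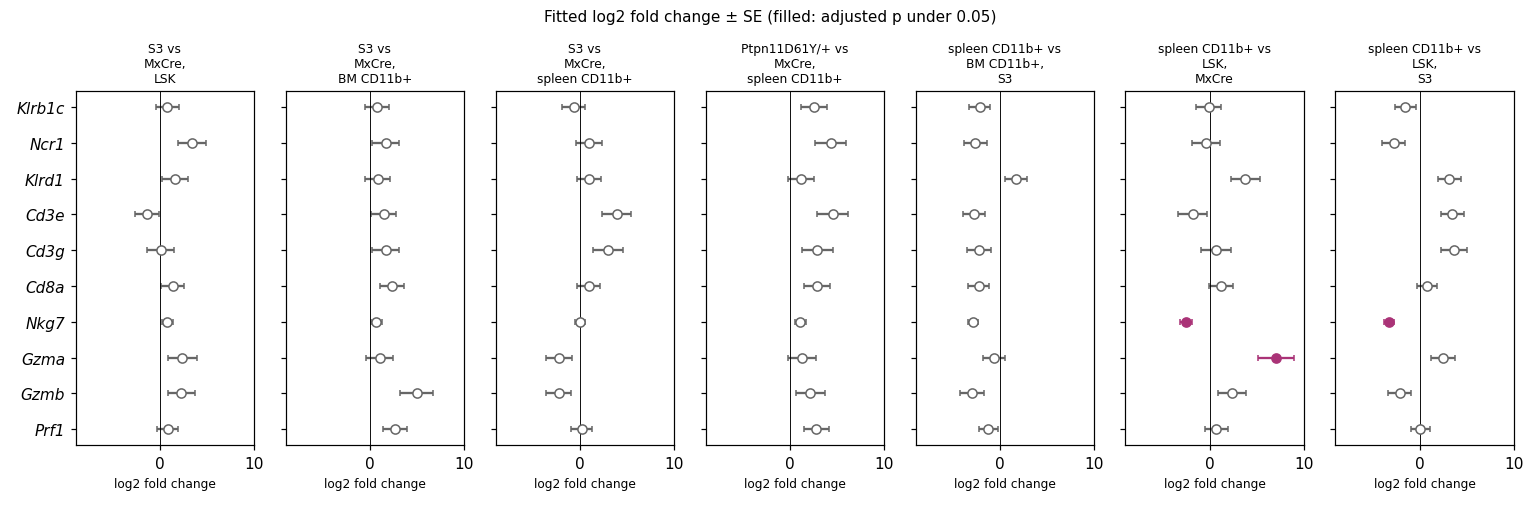
Fitted log2 fold change with SE of the 10 genes (rows) in 7 comparisons (panels), with filled points for adjusted p under 0.05. Filled points are Nkg7 in both comparisons of spleen with LSK cells, at -2.54 and -3.32, and Gzma in MxCre, at 7.03.

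Other genes of these cells were taken from 5 lists, whose counts for spleen against LSK cells stand beside the 41.6% of all genes called in MxCre and the 27.4% in S3 mice. Of 22 NK receptors and regulators 9 were called higher and 1 lower in MxCre spleen CD11b+ against LSK cells, with Klra3 and Klra9, inhibitory receptors of the Ly49 family, at 6.83 ± 1.87 and 5.76 ± 1.74 (log2, SE, adjusted p = 0.0103 and 0.0167 by edgeR). The most abundant gene of this list was Fcgr3, at 17.1 to 613 CPM, an Fc receptor that myeloid cells also carry. Itga2, an integrin that progenitors and platelets also make, was lower at -5.97 ± 2.06. Of the same 22 genes 2 were called higher and 2 lower in S3 mice, with Fcgr3 at 2.35 ± 0.47 and Cd226 at -2.70 ± 0.91. Median log2 fold changes of the list were 3.03 in MxCre and 0.03 in S3 mice, beside -0.34 and 0.02 over all genes.

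Of 20 T cell receptor and identity genes 1 was called higher and 3 lower in MxCre spleen against LSK cells, and 5 higher and 1 lower in S3 mice, beside 41.6% and 27.4% of all genes. Cd3d, a further CD3 chain, was called in both, at 3.57 ± 0.82 and 4.40 ± 0.70, and Cd4 and Trac, a constant segment of the receptor, rose in S3 mice by 4.33 ± 0.999 and 3.88 ± 1.11 (log2, SE). Lower in MxCre were Bcl11b, Thy1 and Lat, at -4.40, -3.44 and -2.82. Thy1 is also carried by stem cells, and Lat is also used in platelets and mast cells. In BM MxCre replicate 1, Cd3d stood at 9.03 CPM and Cd4 at 157, although Cd3e, Cd3g, Cd8a and Trac had a count of 0.

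Of 16 genes shared by T and NK cells 6 were called higher and 3 lower in MxCre spleen against LSK cells, and 5 higher and 2 lower in S3 mice, again beside 41.6% and 27.4% of all genes. Ccl5, a chemokine of cytotoxic cells and the most abundant of the list, rose by 4.81 ± 1.19 and 4.47 ± 0.96, and Tbx21, which encodes T-bet, by 3.94 ± 1.24 and 3.97 ± 1.01. In the spleen of Ptpn11D61Y/+ against MxCre mice Lck, the kinase next to the T cell receptor, and Cst7, a granule protease inhibitor, were called higher, at 3.42 ± 0.88 and 2.25 ± 0.61, beside 5.11% of all genes called, and all 16 estimates were above 0 with a median of 1.92. In the same comparison 1 of the 22 NK genes, the interleukin 18 receptor chain Il18rap, was called lower at -2.57 ± 0.53, and 1 of the 20 T cell genes, the inhibitory receptor Ctla4, higher at 3.01 ± 0.77. Estimates there were above 0 for 17 of the 22 and 18 of the 20 genes. Their medians were 1.14 and 2.63, beside 0.20 over all genes. Il7r, the interleukin 7 receptor, 1 of 8 innate lymphoid genes, was called higher at 2.96 ± 0.60. Of 11 other granzymes and granule genes tested, out of 15 listed of which Gzmd and Gzmg had no count, 6 and 4 were called higher in the spleen than in LSK cells of MxCre and S3 mice. Among them were Stx11, a fusion protein of granules, at 5.07 ± 0.48 and 3.09 ± 0.36, and Ctsc, the protease that activates granzymes, at 2.37 ± 0.50 and 3.09 ± 0.42, which are made by myeloid cells too. In S3 against MxCre spleen Srgn, the proteoglycan of granules, and Stx11 were the 2 of these 11 called, both lower, at -3.16 ± 0.58 and -1.61 ± 0.36 (adjusted p = 0.00966 and 0.0236 by edgeR), and Il7r was called higher at 2.33 ± 0.56, beside 4.19% of all genes. In Ptpn11D61Y/+ against MxCre spleen 3 of the 11 were called, all lower, namely Srgn, Stx11 and Rab27a, a small GTPase of granule docking, at -2.60, -2.33 and -1.79. In Ptpn11D61Y/+ spleen against BM, beside 3.69% of all genes, the NK receptor Cd244a and the granzyme B inhibitor Serpinb9 were called higher at 3.13 and 2.75, and Il18rap, Rab27a and Il7r lower at -2.31, -1.86 and -2.78. Il7r was also called lower in MxCre spleen against BM, at -4.57, as the 1 gene of the 5 lists and beside 0.915% of all genes, and in S3 mice none of the 5 lists held a called gene, beside 0.0563%. Of the 8 innate lymphoid genes none was called higher in the spleen than in LSK cells. Called lower were 3 in MxCre, namely Il17rb, Gata3 and Il7r at -5.62, -3.59 and -3.51, and 4 in S3 mice, namely Il17rb, Zbtb16, Gata3 and Il7r at -4.36, -2.88, -2.64 and -1.97, beside 41.6% and 27.4% of all genes. Il1rl1 was the most abundant of the 8, at 1.30 to 27.9 CPM. None of the 22, 20, 16, 11 and 8 genes was called in S3 against MxCre LSK or BM cells, where 0.0307% and 0% of all genes were. Of the 22 NK genes 18 had estimates above 0 in LSK cells, with a median of 2.28 beside 0.01 over all genes, 13 in BM cells, with a median of 0.10 beside 0.18, and 10 in spleen cells, with a median of -0.29 beside 0.32. Of the 20 T cell genes 5 had estimates above 0 in LSK, 18 in BM and 14 in spleen cells, with medians of -0.49, 1.28 and 1.33.

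The S3 LSK library of animal 768, with the highest Ncr1, also had 27.7 CPM of Il2rb, 16.6 of Klrk1 and 2.59 of Eomes, against at most 5.44, 2.09 and 0.377 in the 4 LSK libraries of MxCre and Ptpn11D61Y/+ mice. In animals 540 and 815 Il2rb stood at 4.18 and 10.5 CPM, Klrk1 at 3.39 and 9.82 and Eomes at 0.449 and 1.20, so that Klrk1 and Eomes were above the 4 others in all 3 S3 libraries and Il2rb in 2 of them. The 22 NK genes summed to 148, 214 and 184 CPM in animals 540, 768 and 815 against 87.1 to 122 in the 4 others. Of these sums Fcgr3, which myeloid cells also carry, made up 48.8, 57.2 and 45.1 CPM against 17.1 to 21.3, and the sum of 10 monocyte and macrophage markers was 348, 934 and 913 CPM against 232 to 473. Il2rb, Klrk1 and Eomes encode an interleukin receptor chain, the receptor NKG2D and a transcription factor of NK cells. Of the T cell genes Trac and Cd3d stood at 0.224 and 0.418 CPM in the same library, within the range of the other LSK libraries. Trbc1 and Trbc2, constant segments of the receptor's beta chain, were highest of the LSK libraries there, at 5.72 and 2.15 CPM against at most 3.34 and 1.78 in the others, and so was Cd3g, at 0.650 CPM. In LSK cells animals 768 and 815 had 88850 and 39460 Xist counts and 0 of Eif2s3y. Animal 540 and the MxCre and Ptpn11D61Y/+ LSK libraries had at most 17 Xist counts. The part of sex and of other cells in these LSK values was not tested. In the BM library of animal 640 Eomes stood at 33.7 CPM, Il2rb at 79.4 and Gzmc at 18.7, the highest of all 21 libraries, beside a Trac level of 44.4.

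Genes whose log2 CPM was most like that of Ncr1 over the 21 libraries were Klrc2 (r = 0.926), Cpne7 (0.841), Phactr3 (0.830), Cd160 (0.825) and Il2rb (0.807). For Cd3e they were Cd8b1 (r = 0.977), A630023P12Rik (0.950), Izumo1r (0.946), Gzmk (0.939) and Trac (0.938). These correlations describe libraries that share animals, sorts and a number of counts of 0, and no test was made of them.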

How the data were processed

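RNA-seq of 21 mouse libraries, from LSK, BM CD11b+ and spleen CD11b+ cells, was analysed. By the study's methods and the submitters' processing notes the authors extracted RNA with the RNeasy Micro kit, prepared stranded mRNA libraries and used bcl2fastq 2.20.0.422, FastQC 0.11.9, Trim Galore 0.6.5 and STAR 2.5.3a on GRCm38. The authors deposited raw read counts per Ensembl gene, 1 table per library. The counting program, its annotation and its use of strand are not given in the sources used here, and reads of similar genes may be split. Symbols were found for 45143 of 45706 identifiers.

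Counts were fitted with edgeR 4.0.16 (R 4.3.3): filterByExpr over 9 groups (minimum count 10), TMM, and 1 robust quasi-likelihood fit over all 21 libraries (12 residual degrees of freedom), with Benjamini-Hochberg adjustment over 19555 genes and a threshold of 0.05. A standard error is the size of the estimate over the square root of its F statistic. Levels are CPM, and log2 CPM used a prior count of 2. Counting error is largest near the floor of 3 counts, and floors cover counting error only. By their labels, the S3 libraries of 540, 640 and 815 share a number between fractions, which was taken as an animal. After subtracting group means, their spleen and BM libraries correlated at 0.108, 0.333 and 0.407, and the spleen and LSK libraries of 540 and 815 at 0.0865 and 0.0529. Alternatives were DESeq2 1.42.0, limma-voom (limma 3.58.1), RLE factors, other filters, only the groups compared, both controls, the replicate block, each library left out, and, chosen after seeing the data, library size alone and the 3 libraries with the fewest genes detected left out.

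The 10 genes and the gene lists were chosen with earlier results of these data known. Named were the 10 genes, the 5 genes most like Ncr1 and Cd3e, the most abundant gene of a list and up to 4 called genes per list and comparison with the largest change. Other genes (Cd8b1, Trac, Trbc1, Trbc2, Il2rb, Klrk1, Eomes, Gzmc, Cd3d, Cd4 in single libraries) were named after their values were seen. The study's methods give 3 mice per genotype for CD11b+ RNA while the labels give 2 libraries per control genotype and fraction. Nothing says whether a library is 1 mouse or which control libraries came from the same mice. P-values measure the spread between these libraries, in the main fit over all 9 groups together.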

Additional observations from a re-analysis of the deposited data

Results flagged for a closer look

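For Cd3e, Gzma and Gzmb every S3 library lay on one side of every MxCre library in LSK cells and on the opposite side in spleen CD11b+ cells, as it did for 6.83% of the 19555 genes tested. For Cd3e the log2 fold change of S3 against MxCre was -1.41 in LSK and 3.88 in spleen cells. For Gzma it was 2.36 and -2.23, and for Gzmb 2.24 and -2.25. The difference between the fractions was tested in the edgeR fit and passed the threshold for none of the 3, at adjusted p of 0.299, 0.357 and 0.352. In LSK cells Cd3e had at most 67 counts in any of these libraries and Gzma at most 199, and in MxCre spleen cells Cd3e had at most 10.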

How the results depend on the processing

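The estimates of genes called under at least 1 setting were repeated under 709 alternatives: 606 kept direction and side of the threshold, 80 passed it where the fit over all libraries did not, 3 lost it and 20 reversed. RLE factors and library size alone changed no count of the 10 genes called. Some counts over all genes changed, as for Ptpn11D61Y/+ against MxCre in spleen, from 1000 to 1113 and 1707. Numbers in parentheses are all genes called in the same fit. DESeq2 called 1 of the 10 for S3 against MxCre in BM (965) and in spleen (3409), 2 for Ptpn11D61Y/+ against MxCre in spleen (3381), 3 (2116), 2 (2564) and 1 (551) for spleen against BM in MxCre, Ptpn11D61Y/+ and S3, 5 (7108) for spleen against LSK in S3, and 1 for the differences spleen minus LSK (827) and minus BM (529). Limma-voom called 1 (1775) for Ptpn11D61Y/+ in spleen. With only the groups compared, 3 (4700) were called for S3 in LSK, 5 (4265) for spleen against BM in Ptpn11D61Y/+, and 4 (9001) and 3 (5315) for spleen against LSK in MxCre and S3. For S3, no filter on low counts gave 1 (17) and at least 10 counts in every library 1 (12) for spleen against BM, and the latter 2 (4321) for spleen against LSK. Without the 3 libraries with the fewest genes (chosen after seeing the data), 2 (2081) were called for Ptpn11D61Y/+ in spleen, and 2 (1367) and 2 (103) for spleen against BM in MxCre and S3. With the replicate block, 6 (7714) were called for spleen against LSK in S3. Control libraries share a number only: there the block gave 1 (1653) for Ptpn11D61Y/+ in LSK, 5 (2024) in spleen and 5 (3082) for spleen against BM in Ptpn11D61Y/+, and same-numbered libraries correlated at -0.173 to 0.0585. It changed no other count by over 1.5 times. Values over 10 below are fitted against a library with 0 counts and are no bound. Leaving out single libraries gave 0 to 7 for S3 and 0 to 6 for Ptpn11D61Y/+ in BM, 0 to 3 and 0 to 1 for spleen against BM in MxCre and S3, 1 to 2 and 1 to 4 for spleen against LSK in MxCre and S3, and 0 to 2 for the difference spleen minus BM. A group left with 1 library is assumed to vary like the others.

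Over the 130 pairs of gene and comparison, 45 changed sign without some single library. The 20 reversals below are of genes called under at least 1 setting, and their cause was not tested. For S3 against MxCre in BM, Klrb1c (0.73) was -0.02 against both controls, -0.06 without the 3 libraries and -0.25 to 11.56 without single ones. Klrd1 (0.82) was -0.59 and -0.17 to 11.82, Gzma (1.01) -1.2 and -0.22 to 12.19, and Nkg7 (0.65) -0.11 to 2.42 in the same order. For Ptpn11D61Y/+ in BM, Klrd1 (0.45) was -0.53 without the 3 and -0.53 to 11.46 without single libraries, and Nkg7 (0.56) -0.19 and -0.19 to 2.34. For spleen against BM in MxCre, Klrd1 (1.55) was -0.14 without the 3, Cd3e (-5.21) ran from -11.34 to 6.14, and Cd8a (-0.9) was 2.05 with limma-voom, 1.28 with the replicate block and -2.45 to 10.4 without single libraries. For the difference spleen minus BM, Cd8a (-1.37) was 1.41 without the 3 and -12.66 to 0.18 without single libraries. By the median of the genes, the NK against T log2 ratio was -0.22 in Ptpn11D61Y/+ BM (sum -0.84) and -1.35 in S3 spleen (sum 1.59). With library size alone 31 of 90 group levels moved by over 1 SD.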
